A study of Mus musculus with 12 samples.

Results

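Xenobiotic metabolism enzymes were followed in whole mouse lung by RNA sequencing after house dust mite extract, and the group was chosen by gene symbol alone. Members were the genes of the cytochrome P450 (Cyp), flavin-containing monooxygenase (Fmo), glutathione S-transferase (Gsta, Gstk, Gstm, Gsto, Gstp and Gstt), UDP-glucuronosyltransferase (Ugt1 and Ugt2), aldehyde dehydrogenase (Aldh) and sulfotransferase (Sult) families. The symbols gave 190 members in the count tables of either set of libraries, 186 of 33924 listed genes in the first set and 185 of 22609 in the second. A member was tested where its mean over the libraries of a set reached 1 CPM, the read count scaled to a common library size, which 73 members did in the first set and 72 in the second, 68 of them in both.

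The animals were B6 mice aged 6 to 8 weeks, and lungs were taken 14 to 16 h after treatment. The RNase III set held only wild-type mice, given PBS (2 libraries, numbered 1 and 2), extract labelled D.f. (2 libraries, 3 and 4) or that extract with RNase III, an enzyme that cuts double-stranded RNA (2 libraries, 5 and 6). In the knockout set, wild-type mice received PBS (1 library) or D.f. extract (2 libraries, 3 and 4), and double-knockout mice, without Tlr3 and without Mavs, received PBS (1 library) or the extract (2 libraries, 5 and 6). Tlr3 senses double-stranded RNA in endosomes, while Mavs relays signals from the RIG-I-like sensors of the cytosol. The labels give no group of PBS with RNase III, so an effect of cutting RNA in the extract and any other effect of adding the enzyme cannot be told apart. No label ties the libraries of a group to separate animals, so the p-values rest on a spread between libraries that may be technical.

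These enzymes handle foreign compounds in steps. Cytochrome P450 enzymes and flavin monooxygenases insert oxygen, aldehyde dehydrogenases oxidise reactive aldehydes, and transferases then attach glutathione, glucuronic acid or sulfate, which makes the products easier to export. In the mouse airway the club cell, a secretory epithelial cell, is known for high P450 content, above all of Cyp2f2, the enzyme that activates naphthalene. The symbol rule also takes in members that work mainly on the body's own molecules, such as Cyp51 in sterol synthesis, Cyp26b1 in retinoic acid breakdown and Aldh18a1 in proline synthesis.

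A library of the RNase III set held 17754518 to 25714074 assigned reads and one of the knockout set 15687699 to 20945618, so that 3 reads, taken as the limit of detection, were worth 0.117 to 0.191 CPM. Replicate libraries differed beyond sampling noise in every replicated group. Mavs was at 32.1 to 37.0 CPM in the 3 wild-type libraries of the knockout set and at 2.34 to 3.08 CPM in the 3 double-knockout libraries, and Tlr3 at 43.1 to 155.8 CPM against 9.99 to 14.7 CPM, so both targeted genes went with their labels. Between the sets the club cell gene Scgb1a1 differed widely, at 11852.6 to 24279.8 CPM in the RNase III set and at 1052.0 to 1711.2 CPM in the knockout set, where the 7 club cell markers summed to 1223.8 to 2095.2 CPM. Cardiac muscle markers varied from library to library within both sets, and their values are given below beside Cyp2a5 and Aldh1b1.

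Most members had few or no assigned reads in lung. In each set 113 members stayed under the minimum, and in the RNase III set 58 of these had no read in any library and 55 had some. Aldh was the most widely detected family, with 18 of 20 listed members tested in the RNase III set, followed by Fmo with 5 of 6 and Gst with 15 of 21. Cyp had 28 of 103, Sult 4 of 18 and Ugt 3 of 18. The Ugt1a genes overlap on chromosome 1 and all end between 90115572 and 90116577 (NCBIM37). Reads that fit several genes were not assigned, so counts of the Ugt1a genes may lie below their RNA levels. Just outside the minimum in the RNase III set lay Cyp4a12b at 0.751 CPM and Ugt1a2 at 0.974 CPM, and just inside it lay Sult2b1 at 1.36 CPM and Cyp2ab1 at 1.45 CPM. On a scale of CPM per kilobase of exon, the highest levels in the PBS libraries of the RNase III set were those of Cyp2f2 (766.4), Aldh1a1 (351.3), Fmo2 (190.9), Cyp4b1 (148.8), Aldh2 (147.4) and Gstm1 (109.0). In the wild-type PBS library of the knockout set, Aldh1a1 (197.4), Cyp4b1 (149.8), Gstm1 (138.5) and Fmo2 (129.7) stood at the top on the same scale and Cyp2f2 was at 46.6.

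Promoter sequences are shown for 3 members the results turn on, Fmo2 and Gstm1, which were lower with extract, and Cyp4f18, which was higher. RefSeq promoters (GRCm38.p6, 250 bases before to 50 after the annotated start) were at hand for 13 of the 21 members that were lower with extract in the RNase III set, in 17 windows, and for 1 of the 2 that were higher. Capitals mark the motifs searched on both strands. These were GCGTG (the core bound by Ahr with Arnt), TGACNNNGC (the antioxidant response core), TTCNNNGAA (the STAT core), an NF-kB-like motif and TTANGTAA. The last is a loose pattern for sites of Tef, Hlf and Dbp, with any base at N.
Fmo2, chr1:162898709-162899008, minus strand: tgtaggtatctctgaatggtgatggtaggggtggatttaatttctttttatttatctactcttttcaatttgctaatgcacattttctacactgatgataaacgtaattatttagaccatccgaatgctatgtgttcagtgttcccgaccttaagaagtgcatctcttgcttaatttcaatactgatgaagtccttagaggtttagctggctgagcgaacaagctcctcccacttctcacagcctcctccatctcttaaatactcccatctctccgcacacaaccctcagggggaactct
Gstm1, chr3:108017924-108018223, minus strand: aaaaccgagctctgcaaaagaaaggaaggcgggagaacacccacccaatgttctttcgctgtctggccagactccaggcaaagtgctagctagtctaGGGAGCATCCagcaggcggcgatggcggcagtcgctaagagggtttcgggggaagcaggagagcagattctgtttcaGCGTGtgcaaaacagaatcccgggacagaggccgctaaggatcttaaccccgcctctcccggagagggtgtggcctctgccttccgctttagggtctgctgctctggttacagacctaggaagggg
Cyp4f18, chr8:72009577-72009876, minus strand: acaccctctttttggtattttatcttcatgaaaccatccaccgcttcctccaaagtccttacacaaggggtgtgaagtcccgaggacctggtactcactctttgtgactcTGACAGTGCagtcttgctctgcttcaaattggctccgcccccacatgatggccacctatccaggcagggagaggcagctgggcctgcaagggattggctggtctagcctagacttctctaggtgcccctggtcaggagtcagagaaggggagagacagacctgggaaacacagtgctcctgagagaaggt

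The Fmo2 window held none of the 5 motifs, and a second Fmo2 window, not shown, held TTCNNNGAA. The Gstm1 window held the NF-kB-like motif beginning at -153 and GCGTG at -76 relative to the start, a second, overlapping Gstm1 window, not shown, held both as well, and the Cyp4f18 window held TGACNNNGC at -140. TTANGTAA was added after the data were seen. Over the 17 windows of the lower members, GCGTG was in 4 (23.5%, against 32.4% of all 32851 mouse windows), TGACNNNGC in 2 (11.8% against 12.4%), TTCNNNGAA in 1 (5.88% against 8.3%), the NF-kB-like motif in 5 (29.4% against 20.7%) and TTANGTAA in 1, that of Sult1a1 (5.88% against 2.32%). The Sult1a1 match read TTAGGTAA, and whether Tef, Hlf or Dbp bind that sequence was not tested. A match describes letters in a window and is not evidence of binding.

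Many of these enzymes were lower in wild-type lung after mite extract than after PBS. Genes of the RNase III set that passed the test as lower came from all families but Ugt. The 3 tested Ugt genes also lay below 0, with a median log2 fold change of -0.37. In the RNase III set, 21 of the 73 tested members were lower with extract than with PBS and 2 were higher by edgeR's quasi-likelihood test, Benjamini-Hochberg adjusted over all genes at 0.05, where 4.84% of the 15491 genes tested were lower and 6.87% were higher. The median log2 fold change was -0.41 over the members and -0.01 over all genes tested, and 60 of 73 members lay below 0, against 51.0% of all genes. By family, 3 of 5 Fmo, 7 of 15 Gst, 5 of 18 Aldh, 2 of 4 Sult and 4 of 28 Cyp genes were lower, none of 3 Ugt genes passed the test, and both genes that were higher were Cyp genes. The reads of all members together made up 0.618% and 0.694% of assigned reads in the PBS libraries and 0.350% and 0.302% in the extract libraries. Much of this share came from abundant genes such as Cyp2f2 and Fmo2 (21796 and 21425 reads in PBS library 1). In wild type of the knockout set the share was 0.455% with PBS and 0.363% and 0.347% with extract.

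**Figure D1:**
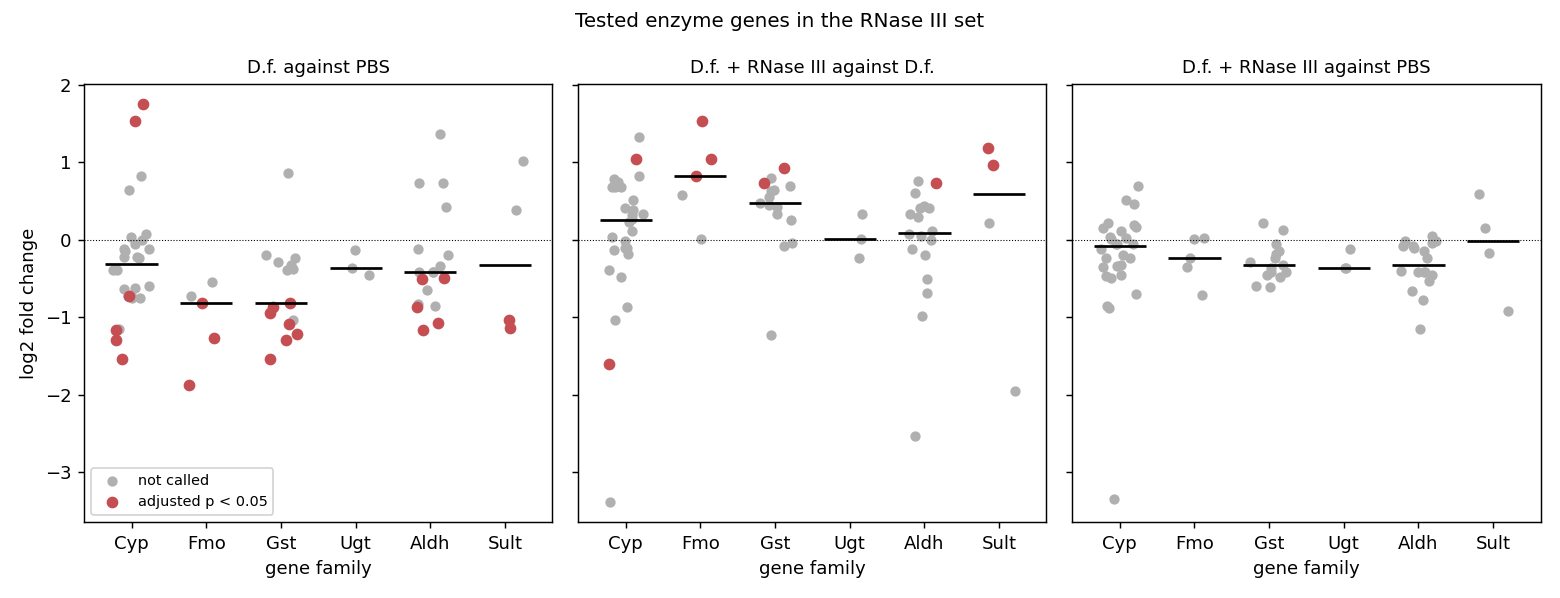
Each point is 1 tested enzyme gene in the RNase III set, with its log2 fold change on the vertical axis and its gene family on the horizontal axis, for 3 comparisons. Red points passed the adjusted threshold of 0.05, grey points did not, and bars are family medians, which for extract against PBS lay at -0.82 in Fmo, -0.81 in Gst, -0.41 in Aldh, -0.37 in Ugt, -0.33 in Sult and -0.31 in Cyp.

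The largest fall of any member was that of a flavin monooxygenase. Fmo2 had the highest CPM of the Fmo genes in these lungs. It stood at 1185 and 931.6 CPM with PBS and at 309.0 and 265.6 CPM with extract. The groups were far apart, and the log2 fold change was -1.88 ± 0.21 (SE, adjusted p = 0.00273, edgeR's quasi-likelihood test). Fmo5, which converts ketones to esters, went from 33.2 and 31.9 CPM to 15.3 and 11.6 CPM (-1.27 ± 0.16, adjusted p = 0.00393, edgeR). Fmo1 went from 400.9 and 274.3 CPM to 191.2 and 192.2 CPM, a smaller fall (-0.82 ± 0.19, adjusted p = 0.0358, edgeR). Fmo1, Fmo2 and Fmo4 lie together on the minus strand of chromosome 1 between 164724014 and 164828857 (NCBIM37, the assembly called mm9), whereas Fmo5 lies on chromosome 3 at 97432727 to 97459205. Fmo4 did not pass the test, at 3.82 and 3.89 CPM with PBS and 2.21 and 3.05 CPM with extract (adjusted p = 0.286, edgeR).

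Among the P450 genes, Cyp2f2 (chromosome 7, 27904928 to 27918679) was the most abundant. Its PBS libraries held 1205.5 and 1898.4 CPM and its extract libraries 569.7 and 494.7 CPM, without overlap (-1.54 ± 0.23, adjusted p = 0.00727, edgeR). Cyp2d22, the mouse gene usually set beside human CYP2D, had the smallest p of all members, with 40.7 and 36.0 CPM against 16.1 and 15.3 CPM (-1.29 ± 0.13, adjusted p = 0.00206, edgeR). Cyp2u1, which hydroxylates long-chain fatty acids, and Cyp39a1, an oxysterol hydroxylase, were also lower, at -1.16 and -0.73 on the log2 scale. Several P450 genes of high interest in toxicology did not pass the test. Cyp1a1, the classical target of the aryl hydrocarbon receptor, was at 8.85 and 9.14 CPM with PBS and at 2.57 and 5.58 CPM with extract (adjusted p = 0.0854, edgeR), while Cyp1b1 was at 9.63 to 13.6 CPM in the 4 libraries (adjusted p = 0.871). Cyp4b1, a lung P450 that activates aromatic amines, was at 325.2 and 353.7 CPM against 243.8 and 170.0 CPM (adjusted p = 0.0584, edgeR), and Cyp2b10, a target of the constitutive androstane receptor in liver, overlapped between the groups (adjusted p = 0.223).

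The 2 members that rose were P450 genes that act on lipid mediators. Cyp7b1, which hydroxylates oxysterols, stood at 5.59 and 6.11 CPM with PBS and at 20.0 and 14.0 CPM with extract (1.54 ± 0.32, adjusted p = 0.0250, edgeR). Cyp4f18 (chromosome 8, 74512381 to 74533525), which hydroxylates leukotriene B4 in mouse neutrophils, stood at 3.48 and 7.73 CPM with PBS and at 21.6 and 16.7 CPM with extract (1.76 ± 0.35, adjusted p = 0.0227, edgeR). In both genes every extract library lay above every PBS library. Both calls were lost without either extract library (adjusted p = 0.147 and 0.0730 for Cyp7b1, 0.136 and 0.0951 for Cyp4f18, edgeR). Summed levels of 5 monocyte markers moved with these genes, at 124.3 and 112.7 CPM with PBS and 515.0 and 607.2 CPM with extract, whereas those of 6 neutrophil markers overlapped, at 23.5 and 67.4 CPM against 113.3 and 50.6 CPM. By the test 4 of 5 monocyte markers were higher (median 2.29), and 1 of 5 tested neutrophil markers was higher (median 0.74). All 5 monocyte markers were detected in each of these libraries. The part of either list in the result was not tested. In bulk tissue, fewer cells of a type and less RNA per cell cannot be told apart, which holds for every member described here.

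Glutathione transferases of the mu, kappa, alpha and theta classes were lower with extract. Gstm1 was at 124.0 and 180.0 CPM with PBS and at 71.6 and 51.9 CPM with extract (-1.30 ± 0.22, adjusted p = 0.0117, edgeR). Gstm1, Gstm2 and Gstm5 were lower (-1.30, -0.87 and -1.09), and their neighbours Gstm7, Gstm4 and Gstm6 did not pass the test (-1.04, -0.33 and -0.19). These 6 genes lie between 107698739 and 107847812 on chromosome 3 (NCBIM37). Gstm2-ps1, a short locus on chromosome 5 named after Gstm2, went from 22.3 and 27.5 CPM to 9.73 and 7.46 CPM (-1.54 ± 0.19, adjusted p = 0.00374, edgeR), but its reads may belong to the near-identical parent gene and its value is uncertain. Other classes contributed single genes. Gstk1, the kappa transferase of mitochondria and peroxisomes, was at 27.3 and 26.2 CPM against 12.5 and 10.6 CPM (-1.21 ± 0.14, adjusted p = 0.00324, edgeR). Gsta3 of the alpha class (-0.94) and Gstt2 of the theta class (-0.81) were lower too. Gstp1 (-0.29) and Gsta4 (-0.38) did not pass the test, and neither did Gsto1, which was at 36.5 and 99.9 CPM against 123.2 and 124.4 CPM.

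Of the aldehyde dehydrogenases, Aldh1a1 and Aldh2 were the abundant genes that fell. Aldh1a1, which makes retinoic acid from retinaldehyde, was at 678.9 and 763.4 CPM with PBS and at 385.4 and 303.3 CPM with extract (-1.07 ± 0.17, adjusted p = 0.00930, edgeR). Aldh2, the mitochondrial enzyme that clears acetaldehyde, was at 592.0 and 795.0 CPM against 360.3 and 259.1 CPM (-1.16 ± 0.22, adjusted p = 0.0168, edgeR). Aldh1a7, a close paralog of Aldh1a1 on chromosome 19 whose reads could be exchanged with it, fell less (-0.49), as did Aldh7a1 of lysine breakdown (-0.51), and Aldh6a1 of valine breakdown lay between (-0.87). Of the sulfotransferases, the phenol enzyme Sult1a1 was at 31.7 and 27.0 CPM with PBS and 14.1 and 12.5 CPM with extract (-1.14 ± 0.19, adjusted p = 0.0105, edgeR), and Sult5a1 was lower by the narrowest margin of all (-1.04, adjusted p = 0.0498, edgeR). Among the glucuronosyltransferases Ugt1a6a averaged 10.9 CPM with PBS and 7.92 CPM with extract, which did not pass the test (-0.46, adjusted p = 0.217).

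Here and below, member counts from fits without a library or by another method come without the share of all genes called. Such counts are not read as results about the members alone. The call of 23 members depended on the libraries used. It became 6 without extract library 4, 12 without extract library 3 and 12 without either RNase III library, while Cyp2d22, Fmo2, Fmo5, Gstk1 and Gstm2-ps1 kept their calls under every alternative that could be run for them. Markers of several cell types were lower with extract too. Club cell markers had a sum of 20455.5 and 26127.3 CPM with PBS and 16193.5 and 13278.7 CPM with extract, and 1 of 7 was lower by the test (median -0.32). Alveolar macrophage markers summed to 732.3 and 760.5 CPM against 441.1 and 220.8 CPM, with 2 of 7 lower (median -1.28). Mesothelial markers summed to 252.3 and 366.4 CPM against 233.4 and 158.8 CPM, with 3 of 5 lower (median -0.65). Fibroblast markers overlapped in their sum, at 3630.9 and 2907.6 CPM against 2883.8 and 3478.9 CPM, with 2 of 8 lower (median -0.72), and 1 alveolar type 1 and 1 endothelial marker were lower as well. The part of these lists in the members' fall was not tested.

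**Figure D2:**
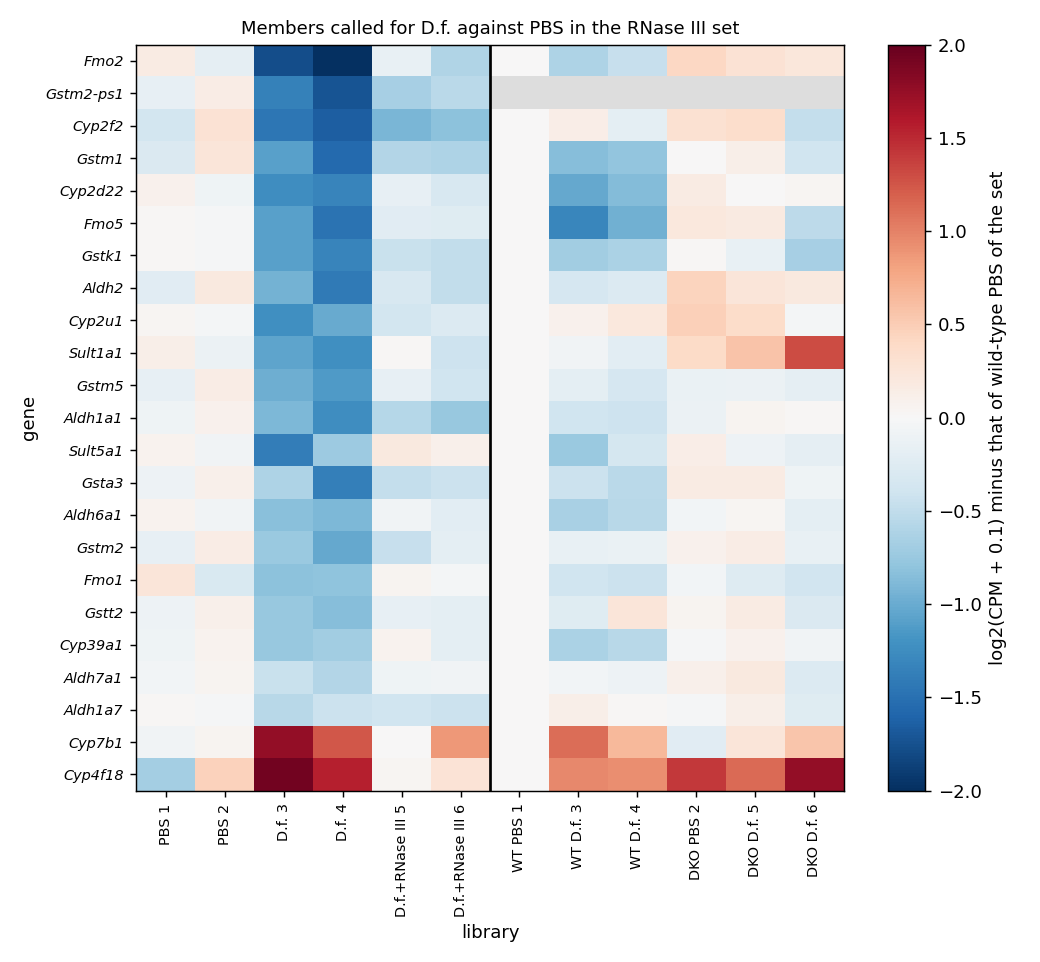
Rows are the 23 members that passed the test for extract against PBS in the RNase III set and columns are the 12 libraries, with the RNase III set left of the line. Colour is log2(CPM + 0.1) minus that of the mean of the wild-type PBS libraries of the set, limited to 2 on either side. In extract libraries 3 and 4 of the RNase III set 21 genes lie below PBS and Cyp7b1 and Cyp4f18 above it, and grey marks Gstm2-ps1, which has no row in the tables of the knockout set.

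Treatment of the extract with RNase III was then compared with the extract itself, a comparison that shares the extract libraries with the one above. With RNase III, 9 of 73 members were higher and 1 was lower than with untreated extract (edgeR's quasi-likelihood test, Benjamini-Hochberg adjusted), where 2.65% of all genes were higher and 5.35% lower. The median log2 fold change was 0.33 over the members and -0.00 over all genes, and 23 of 73 members lay below 0, against 50.3% of all genes. Fmo2 was at 309.0 and 265.6 CPM with extract and at 958.6 and 700.1 CPM with RNase III (1.53 ± 0.21, adjusted p = 0.00741, edgeR). Cyp2d22 was at 16.1 and 15.3 CPM against 34.2 and 30.8 CPM (1.05 ± 0.13, adjusted p = 0.00567, edgeR), and Fmo5 at 15.3 and 11.6 CPM against 27.8 and 27.5 CPM (1.04 ± 0.16, adjusted p = 0.0114, edgeR). In all 3 genes the libraries with RNase III lay above the extract libraries.

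The other members that were higher with RNase III were Sult5a1 (1.19), Sult1a1 (0.97), Gstm2-ps1 (0.93), Fmo1 (0.82), Gstk1 (0.73) and Aldh6a1 (0.73). Cyp4f18 was the member that was lower, at 21.6 and 16.7 CPM with extract and 5.78 and 6.79 CPM with RNase III (-1.61 ± 0.35, adjusted p = 0.0387, edgeR). Cyp7b1, at 20.0 and 14.0 CPM against 5.89 and 10.8 CPM, did not pass the test (-1.03, adjusted p = 0.101). Cyp2f2 was at 569.7 and 494.7 CPM with extract and 827.9 and 880.8 CPM with RNase III, which did not pass the test (0.68, adjusted p = 0.124), and Gstm1 (0.70, adjusted p = 0.105), Aldh2 (0.76, adjusted p = 0.0821) and Aldh1a1 (0.41, adjusted p = 0.206) did not pass either. The 10 calls became 0 without extract library 4 or RNase III library 5, 4 without extract library 3, 1 without RNase III library 6 and 27 without either PBS library, and DESeq2 made 18. Monocyte markers, at 158.9 and 158.5 CPM with RNase III, moved down like Cyp4f18 and Cyp7b1, with 3 of 5 lower (median -1.63). The members that were higher with RNase III moved the opposite way. Of the alveolar macrophage (median 0.58), alveolar type 1 (0.42), club cell (0.08) and mesothelial markers (0.02), 1 each was higher. Adipose markers summed to 43.6 and 70.5 CPM with extract and 11.5 and 5.93 CPM with RNase III, beside 7.19 and 131.7 CPM with PBS, and none of 6 passed the test (median -3.51). The part of these lists was not tested.

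Against PBS, the extract with RNase III gave no member past the threshold by edgeR, where 0.00646% of all genes (1 of 15491) passed. At an unadjusted p under 0.05, 10 of 73 members were lower and none higher, where 2.35% of all genes were lower and 2.48% higher (4.83% in all), and DESeq2 called Cyp2f2 (-0.86, adjusted p = 0.0433). Without PBS library 1, 5 members passed the edgeR threshold, among them Cyp2f2 (-1.15, adjusted p = 0.0370). The median log2 fold change of the members was -0.23, and 55 of 73 lay below 0, against 52.7% of all genes. Aldh1a1, at 678.9 and 763.4 CPM with PBS and 487.5 and 424.5 CPM with RNase III, and Cyp2f2, at 1205.5 and 1898.4 CPM against 827.9 and 880.8 CPM, had libraries that did not overlap, with log2 fold changes of -0.66 and -0.86. For Fmo2 the libraries overlapped (-0.35 ± 0.21). A p that misses the threshold with 2 libraries a group does not show that levels returned to those with PBS.

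**Figure D3:**
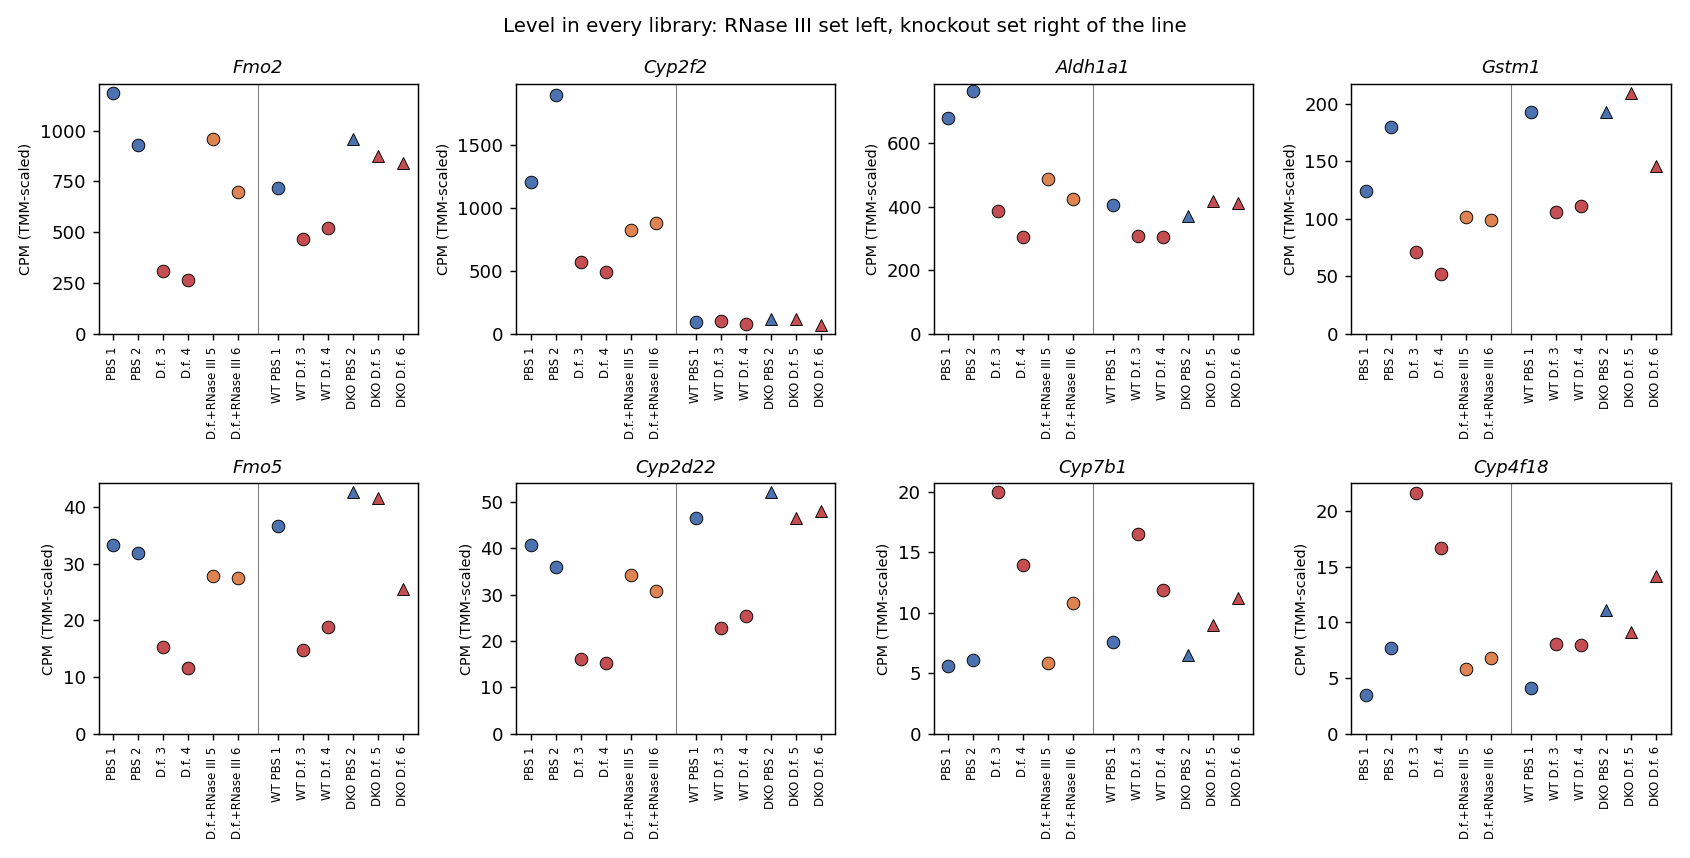
Points are the level of 8 members in each of the 12 libraries, in CPM scaled by TMM, with blue for PBS, red for extract, orange for extract with RNase III, circles for wild type and triangles for the double knockout. In Fmo2 the extract libraries of the RNase III set sit at 309.0 and 265.6 CPM and those with RNase III at 958.6 and 700.1 CPM, and Cyp2f2 is at 120.0 CPM or less in the knockout set.

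The knockout set asked the same of mice without Tlr3 and Mavs. In its wild-type mice, 2 of 72 tested members were lower with extract than with PBS and none was higher (edgeR's quasi-likelihood test, Benjamini-Hochberg adjusted), where 0.128% of 14107 genes were lower and 1.27% higher (1.40% in either direction). At an unadjusted p under 0.05, 23 of 72 members and 7.77% of all genes were lower, and the PBS group was 1 library, assumed to vary like the replicated groups. Cyp2d22 was at 46.5 CPM with PBS and at 22.8 and 25.5 CPM with extract (-0.95 ± 0.12, adjusted p = 0.0406, edgeR). Aldh1l2, a mitochondrial enzyme of folate metabolism, was at 42.6 CPM against 20.0 and 20.8 CPM (-1.06 ± 0.12, adjusted p = 0.0358, edgeR). Without either extract library both calls were lost (adjusted p from 0.220 to 0.401, edgeR) at folds of similar size (-0.87 and -1.03 for Cyp2d22, -1.03 and -1.09 for Aldh1l2), and the count was 26 and 28 without double-knockout extract library 5 or 6. Fmo2 was at 719.3 CPM against 468.0 and 523.4 CPM, and Fmo5 at 36.7 CPM against 14.8 and 18.9 CPM, neither past the threshold (-0.54, adjusted p = 0.120, and -1.13, adjusted p = 0.163).

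In the double knockout no member passed the threshold for extract against PBS, nor did any of the 14107 genes (0% of genes called). At an unadjusted p under 0.05 there were 4 of 72 members, all of them higher (Aldh1l1, Aldh18a1, Cyp3a13 and Cyp51, named after their values were seen), where 3.44% of all genes were higher and 2.13% lower (5.57% in all), and DESeq2 called none. Without extract library 5 the edgeR count was 14 and without extract library 6 it was 3. Fmo2 stood at 956.9 CPM with PBS and at 876.7 and 841.9 CPM with extract, Cyp2d22 at 52.2 CPM against 46.6 and 48.0 CPM, and Gstm1 at 193.3 CPM against 209.8 and 145.7 CPM. The median log2 fold change of the members was -0.03 in the double knockout and -0.27 in the wild type.

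The members found lower in the RNase III set could be read in the knockout set, whose libraries are separate. Of those 21 genes 20 were tested there, and 17 of the 20 lay below 0 in wild type with a median of -0.41, where 53.1% of all genes lay below 0. In the double knockout 17 of the 20 also lay below 0, but with a median of -0.12, where 48.9% of all genes lay below 0. Sult1a1 lay above 0 in the double knockout (37.9 CPM with PBS, 57.6 CPM on average with extract, 0.60 ± 0.31). Cyp2f2 overlapped in the wild type, at 94.3 CPM with PBS and 103.2 and 82.3 CPM with extract (-0.02 ± 0.34). The members that were higher in the RNase III set, Cyp7b1 and Cyp4f18, had log2 fold changes of 0.90 and 0.96 in wild type and 0.64 and 0.08 in the double knockout. Cyp4f18 was at 4.11 CPM with PBS and at 8.11 and 7.94 CPM with extract in wild type. In the double knockout Cyp4f18 was already at 11.1 CPM in the 1 PBS library, and at 9.18 and 14.2 CPM with extract. The 2 responses and the genotype difference below share libraries, and their values are set side by side without a test of overlap.

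**Figure D4:**
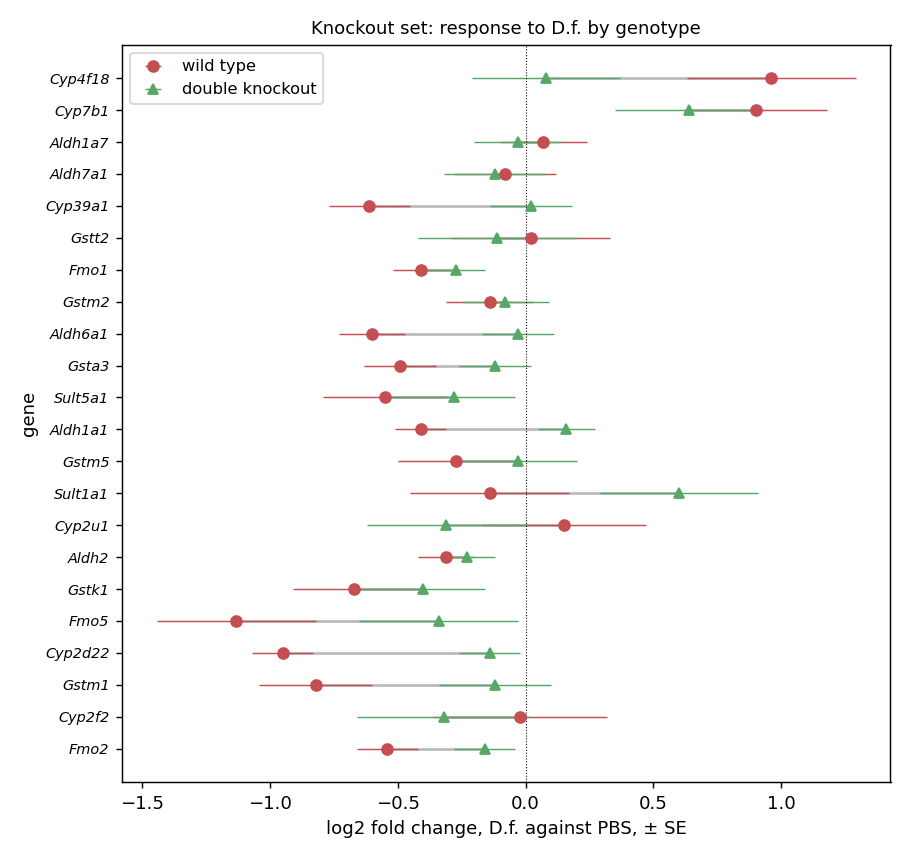
Log2 fold change for extract against PBS with its standard error in the knockout set, for the members that passed the test in the RNase III set, with red circles for wild type and green triangles for the double knockout. Fmo5, Cyp2d22, Gstm1 and Fmo2 lie further below 0 in wild type (-1.13, -0.95, -0.82 and -0.54) than in the double knockout (-0.34, -0.14, -0.12 and -0.16). The reverse order holds for Cyp2f2 (-0.02 in wild type and -0.32 in the double knockout) and Cyp2u1 (0.15 and -0.31). It also holds for Gstt2 (0.02 and -0.11), Aldh1a7 (0.07 and -0.03) and Aldh7a1 (-0.08 and -0.12).

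A difference between those responses was tested as an interaction of genotype and extract, and no member passed the threshold by edgeR, nor did any gene (0% of genes called). At an unadjusted p under 0.05 12 of 72 members were higher and 1 was lower, where 4.30% of all genes were higher and 5.65% lower (9.95% in all), and 25 of 72 members lay below 0, against 48.2% of all genes. DESeq2 called Cyp2b10 (0.88, adjusted p = 0.0227). The edgeR count rose above 0 without either double-knockout extract library, where the spread came from 1 pair of libraries. The share of all genes called in those fits is not given here. Both PBS groups of this set were 1 library each, so the interaction rested on 2 unreplicated values.

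With extract in both genotypes, 5 of 72 members were higher and 2 lower in the double knockout than in the wild type (edgeR's quasi-likelihood test, Benjamini-Hochberg adjusted), where 0.496% of all genes were higher and 1.94% lower (2.44% in either direction). At an unadjusted p under 0.05, 20 of 72 members were higher and 5 lower, where 8.00% of all genes were higher and 10.4% lower. Cyp2b10 was at 124.2 and 133.8 CPM in wild type and at 271.0 and 297.9 CPM in the double knockout (1.14 ± 0.10, adjusted p = 0.0154, edgeR). Cyp2d22 was at 22.8 and 25.5 CPM against 46.6 and 48.0 CPM (0.97 ± 0.10, adjusted p = 0.0210, edgeR). Fmo2 was at 468.0 and 523.4 CPM against 876.7 and 841.9 CPM (0.79 ± 0.10, adjusted p = 0.0306, edgeR). In each of these genes the double-knockout libraries were higher without overlap. Aldh3a1, an aldehyde dehydrogenase of airway and cornea (7.62 and 7.35 CPM against 18.8 and 14.4 CPM, 1.14), and the omega transferase Gsto1 (72.6 and 85.1 CPM against 124.1 and 129.2 CPM, 0.68) were the others that were higher. Of the 20 members followed from the RNase III set, 18 lay above 0 in this comparison with a median of 0.42, and 49.2% of all genes lay below 0. The count of 7 fell to 0 without either wild-type extract library, rose to 28 and 25 without double-knockout library 5 or 6, and was 14 with DESeq2 and 3 in a fit over all 12 libraries. Monocyte markers summed to 522.0 and 360.9 CPM in wild type and 157.3 and 252.5 CPM in the double knockout, with 2 of 5 lower (median -1.42). Alveolar macrophage markers summed to 354.8 and 339.5 CPM against 506.1 and 408.9 CPM, with 1 of 7 higher (median 0.83). Fibroblast markers summed to 5317.6 and 5381.6 CPM against 3745.8 and 3437.4 CPM, with 1 of 8 lower, and 1 of 6 ciliated cell markers was higher. Liver markers summed to 17.1 CPM in double-knockout extract library 5 and to 0.896 to 1.28 CPM in the other 3 libraries. The part of these lists in the members' values was not tested.

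The PBS libraries place some of these differences. Cyp2b10 was at 200.4 CPM in the wild-type and 237.7 CPM in the double-knockout PBS library and Cyp2d22 at 46.5 and 52.2 CPM. For both genes the wild-type extract libraries were the low ones. Fmo2 differed more between the PBS libraries, at 719.3 and 956.9 CPM. With 1 PBS library in each genotype, no test of the genotype without extract was made.

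The 2 members that were lower in the double knockout went with cardiac muscle markers. Cyp2a5, a P450 that oxidises nicotine and coumarin, was at 9.49 and 7.17 CPM in wild type and at 1.86 and 2.24 CPM in the double knockout (-2.02 ± 0.24, adjusted p = 0.0277, edgeR). Aldh1b1, a mitochondrial aldehyde dehydrogenase, was at 4.38 and 4.84 CPM against 1.11 and 0.895 CPM (-2.19 ± 0.26, adjusted p = 0.0277, edgeR). The 7 cardiac muscle markers summed to 423.2 and 633.1 CPM in these wild-type libraries and to 102.0 and 177.4 CPM in the double-knockout ones, with 6 or 7 of the markers detected in each library. The PBS libraries followed the same order, with 784.7 CPM of markers, 8.34 CPM of Cyp2a5 and 2.55 CPM of Aldh1b1 in wild type and 120.3, 2.14 and 1.32 CPM in the double knockout.

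In the RNase III set the marker sum was 144.7 and 1314.8 CPM with PBS, 487.8 and 1015.7 CPM with extract and 216.0 and 192.9 CPM with RNase III. Cyp2a5 was at 3.82 and 43.8 CPM, 26.6 and 22.6 CPM, and 3.14 and 1.55 CPM in the same libraries, so that its PBS libraries differed more from each other than the group means did. Aldh1b1 was at 1.33 and 5.61 CPM, 6.56 and 11.7 CPM, and 1.76 and 1.39 CPM. Sult1d1 was at 2.10 and 10.9 CPM, 13.7 and 12.9 CPM, and 4.02 and 2.89 CPM, and Gsto1 at 36.5 and 99.9 CPM, 123.2 and 124.4 CPM, and 57.0 and 48.5 CPM. All 4 genes and the marker sum were higher in PBS library 2 and both extract libraries than in the other 3. The adipose marker sums given above split these libraries the same way, and their part was not tested. In the knockout set Gsto1 was lower in the wild-type extract libraries, where the cardiac marker sum was higher. Sult1d1, under the minimum there, was lower too, at 0.737 and 0.956 CPM against 1.17 and 1.39 CPM in the double-knockout extract libraries. Its PBS libraries, at 1.33 CPM in wild type and 0.377 CPM in the double knockout, followed the order of the cardiac sum. The secretory gene Scgb3a1 ranged in the same 6 libraries from 2.05 CPM in PBS library 1 to 414.5 CPM in PBS library 2, the library with the highest cardiac sum. All 7 cardiac markers were detected in every library of this set, and their part in the values of these genes was not tested.

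**Figure D5:**
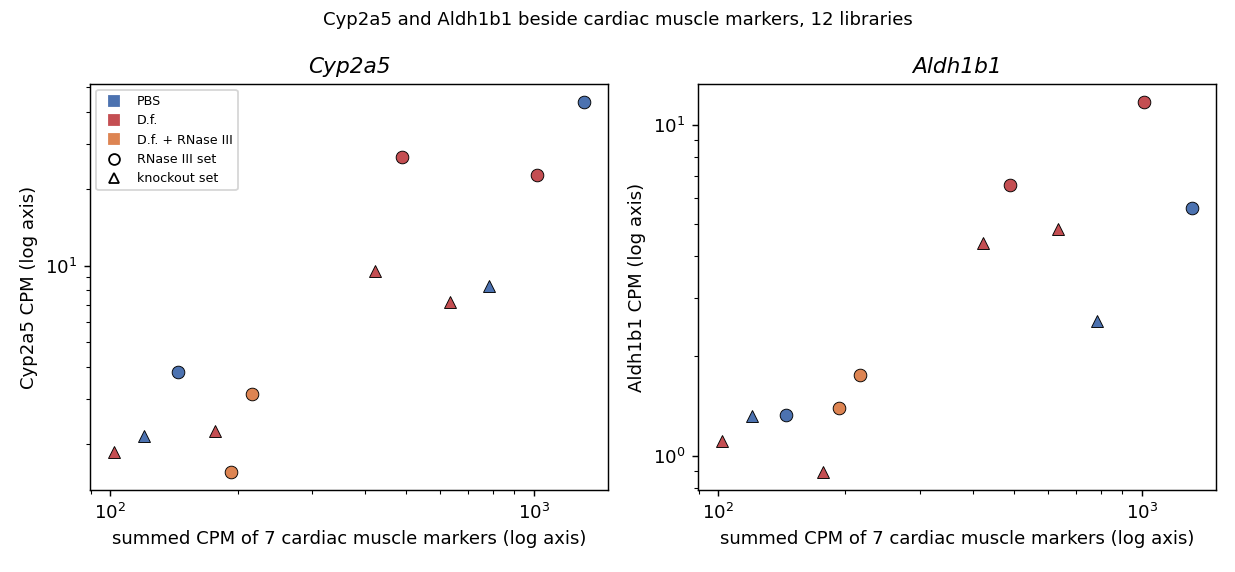
Level of Cyp2a5 (left) and Aldh1b1 (right) in CPM against the summed CPM of 7 cardiac muscle markers, both on log axes, for the 12 libraries, with circles for the RNase III set and triangles for both genotypes of the knockout set. The libraries with marker sums of 216.0 CPM or less hold at most 3.82 CPM of Cyp2a5 and at most 1.76 CPM of Aldh1b1.

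A joint fit of both sets' wild-type mice, PBS and extract alone (7 libraries, with the set as a term), gave 19 of 76 members lower and 2 higher with extract (edgeR's quasi-likelihood test, Benjamini-Hochberg adjusted), where 6.19% of 14152 genes were lower and 9.45% higher. These libraries are those of the comparisons above, so the fit adds precision and no independent evidence. Cyp2d22 (-1.15 ± 0.11, adjusted p = 6.1e-04), Fmo5 (-1.21 ± 0.14, adjusted p = 0.00106) and Aldh6a1 (-0.76 ± 0.10, adjusted p = 0.00186) led the edgeR list. Cyp4b1 (-0.58, adjusted p = 0.0363, edgeR), Aldh3a1 (-0.77, adjusted p = 0.0490, edgeR) and Cyp2s1 (-0.35, adjusted p = 0.0351, edgeR) passed here, where they had adjusted p of 0.0584, 0.123 and 0.111 in the RNase III set. Of the 21 members lower in the RNase III set, 12 were lower here too, 9 were not, and 7 were lower only here. Gstm2-ps1, without a row in the knockout set, could not be tested here. Among the others lost, Cyp2f2 did not pass (-0.99, adjusted p = 0.0921, edgeR), nor did Sult1a1 (-0.75, adjusted p = 0.0517, edgeR). Cyp7b1 (1.29) and Cyp4f18 (1.47) were the members that were higher. The count was 9 without extract library 3 of the RNase III set and 12 without any one of the other 3 extract libraries.

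Whether the sets differed in their wild-type response was tested in the same 7 libraries, an analysis chosen after the data were seen. No member and no gene of 14152 passed the threshold by edgeR. At an unadjusted p under 0.05 there were 13 of 76 members. The share over all genes was not computed here, so that count is not read as a result about the members. Fmo2 had the smallest p, with a difference in log2 fold change of -1.37 between the RNase III and the knockout set (adjusted p = 0.579, edgeR). For Cyp2f2 the difference was -1.55 (adjusted p = 0.632), and for Cyp26b1, the widest of all, it was -3.88 (adjusted p = 0.782). Some members stood at different levels in the sets. Aldh1l2 was at 2.49 to 5.02 CPM in the RNase III set and at 20.0 to 42.6 CPM in the knockout set. Gsta1 had no read in the 6 libraries of the RNase III set, which allows up to 0.169 CPM in a library, and was at 1.82 to 3.78 CPM in the knockout set. The count tables of the sets list different numbers of genes, and no test of these levels between sets was made.

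Some members varied widely within groups of the knockout set. Cyp26b1, which breaks down retinoic acid, was at 301.2 and 90.3 CPM in the wild-type and at 214.9 and 24.3 CPM in the double-knockout extract libraries, beside PBS libraries at 21.0 and 164.7 CPM. In the RNase III set it was at 6.71 to 29.4 CPM. Cyp1a1 was at 21.8 and 6.39 CPM in the wild-type extract libraries of the knockout set, beside 23.0 CPM with PBS.

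Genes that work with these enzymes were read from lists chosen with the members. Redox partners that pass electrons to P450 enzymes, such as Por and Cyb5, had 0 of 7 tested genes called in the RNase III set for extract against PBS, and efflux transporters had 0 of 7. Of 23 other conjugation and hydrolysis enzymes, 6 were lower and none higher. These were Inmt, a methyltransferase of indoleamines (673.4 CPM on average with PBS, 116.8 CPM with extract, -2.53 ± 0.29, adjusted p = 0.00285, edgeR), the carbonyl reductase Cbr2 (1316.1 against 394.2 CPM, -1.74), the aldehyde oxidase Aox3 (-1.50), the epoxide hydrolase Ephx1 (-0.99) and the carboxylesterases Ces1d (-0.98) and Ces1g (-3.37). Ces1g was scarce, at 4.14 CPM on average with PBS and 0.392 CPM with extract. With RNase III against extract, 4 of the 23 were higher, namely Inmt (1.80), Aox3 (1.00), Cbr2 (0.74) and Ces1d (0.64). In the knockout set 0 of 22 passed for extract in wild type, and 0 of 22 between the genotypes with extract. The joint fit of both sets' wild-type mice had 7 lower and 2 higher of 23.

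Among 14 tested regulators, 2 were lower with extract and 1 higher. Tef and Hlf, related transcription factors of the circadian output that control detoxification genes in mouse liver, were lower (114.9 against 47.9 CPM, -1.26, and 18.4 against 8.37 CPM, -1.14), and Keap1, which holds Nrf2 in check, was higher (0.55). With RNase III, Tef (0.98) and Hlf (0.86) were higher than with extract and Keap1 lower (-0.65). Dbp, which binds the same motif as Tef and Hlf, averaged 5.42 CPM with PBS and 2.03 CPM with extract (-1.42, adjusted p = 0.108, edgeR). It was at 1.84 CPM with RNase III (-0.14 against extract). For extract in wild type of the knockout set, Tef (-0.40), Hlf (-0.41) and Keap1 (0.43) did not pass the test. In the double knockout with extract Hlf was higher than in the wild type (15.1 against 7.33 CPM, 1.04, adjusted p = 0.0441, edgeR). The 13 genes linked to Nrf2, the factor of the antioxidant response, did not move one way with extract. In the RNase III set the cystine carrier Slc7a11 (5.04 CPM with PBS, 26.2 CPM with extract, 2.39 ± 0.41) and the glutathione reductase Gsr (0.75) were higher, catalase (Cat, -0.73) was lower and the other 10 did not pass the test. In wild type of the knockout set Slc7a11 lay below 0 (241.5 CPM with PBS, 155.3 CPM with extract, -0.64, adjusted p = 0.0981, edgeR) and Gsr was at -0.01. Over both sets neither passed (0.92, adjusted p = 0.348, and 0.44, adjusted p = 0.0918, edgeR), while Cat was lower (-0.59, adjusted p = 0.0171). Gclc, which makes the precursor of glutathione, was higher in the double knockout with extract than in the wild type (625.4 against 358.1 CPM, 0.80, adjusted p = 0.0217, edgeR).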

How the data were processed

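Whole-lung total RNA from 12 libraries in 2 sets was sequenced by the authors as single-end reads. Per the submitters' processing notes and the series' design text, reads were mapped to mm9 with TopHat2 2.0.8b and counted per gene with HTSeq; the annotation is not given in the sources used here. The deposited values are raw read counts per gene, with no normalization by the authors. The lines of unassigned reads were left out of library sizes and tests; reads mapping to several places made up 36.8 to 44.6% of all reads and were not assigned to genes, so close paralogs keep only their unique reads. Whether counting used strand is not given in the sources used here.

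Counts were normalized by TMM and tested with edgeR 4.0.16 (limma 3.58.1, R 4.3.3) by the quasi-likelihood test with a mean per group, over the 6 libraries of a set, for genes with a mean of at least 1 CPM, with Benjamini-Hochberg adjustment over all genes tested and a threshold of 0.05. The 7 wild-type libraries of both sets were fitted with the set as a term. The fits left 3, 2 and 4 residual degrees of freedom, and the script was tested on simulated data. Alternatives were other filters, RLE normalization, DESeq2 1.42.0, a fit over all 12 libraries and leaving out each library in turn. Members named are up to 8 that rose and 8 that fell most among called members without overlapping libraries, plus a list of well-known enzymes; further members were named after their values were seen. The members and all lists were chosen with earlier results of these data known. Gene coordinates come from the GENCODE annotation of NCBIM37, and promoters from RefSeq (GRCm38.p6), used for sequence only. The results of 1 member are not reported here.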

Additional observations from a re-analysis of the deposited data

How the results depend on the processing

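Over 63 calls of single members, 689 values were recomputed; 515 kept the call, 174 lost it in the same direction and 0 reversed. Leaving out 1 library at a time gave 6 to 34 members for extract against PBS in the RNase III set, 0 to 27 for RNase III against extract, 0 to 5 for RNase III against PBS, 0 to 28 for extract in knockout-set wild type, 0 to 14 for extract in the double knockout, 0 to 28 for the genotypes with extract, 0 to 17 for the interaction and 9 to 23 over both sets; in the knockout set each fit that leaves out an extract library, of either genotype, estimates the spread from 1 pair of libraries. With DESeq2 the counts were 18 in place of 10 for RNase III against extract, 1 in place of 0 for RNase III against PBS, 6 in place of 2 for extract in knockout-set wild type, 14 in place of 7 for the genotypes with extract and 1 in place of 0 for the interaction. With no filter on low counts RNase III against extract gave 17, and a fit over all 12 libraries gave 1 for extract in knockout-set wild type and 3 for the genotypes with extract. The other counts stayed within 1.5 times. These member counts come without the share of all genes called in the same fit. A rise or fall in them is therefore not read as a result about the members alone. Leaving out a PBS library of the knockout set left some of its comparisons without a value.

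No paired analysis was possible because the groups compared share fewer than 2 replicate numbers. Groups held 1 or 2 libraries, and members under 1 CPM were not tested. Intervals of detection cover counting error only.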
